A study of Mus musculus with 18 samples.

Results

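Genes that handle excess glucose through the polyol pathway or protein glycation, and relatives of aldose reductase, were followed in diabetic and non-diabetic mouse retina. The 8 genes included the aldose reductase gene Akr1b3, its relatives Akr1b7 and Akr1b8, the sorbitol dehydrogenase gene Sord and the ketohexokinase gene Khk. The others were the glyoxalase gene Glo1, the fructosamine kinase gene Fn3k and Ager, which encodes RAGE, the receptor for advanced glycation end products. The 8 were chosen by name for these roles from the 35006 genes counted, with earlier results of these data known. Counts of calls among them, set beside all genes, are therefore a description. All 8 were found, each at 1 locus of the mouse genome build mm9, and 7 had enough reads to be tested.

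In the polyol pathway, aldose reductase uses NADPH to turn excess glucose into sorbitol, which sorbitol dehydrogenase oxidizes to fructose, and ketohexokinase then phosphorylates the fructose. Glucose and its breakdown product methylglyoxal also react directly with proteins, which is called glycation. Glyoxalase 1 clears methylglyoxal with the help of glutathione, fructosamine kinase removes early sugar adducts from proteins, and RAGE signals in cells that meet the late adducts. Both arms are long-standing candidates for how high glucose harms the diabetic retina.

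Retinas came from male mice that were 24 weeks old at the end of the study, and their poly(A) RNA was sequenced in 18 libraries. WT mice (3 libraries) were normoglycemic C57BL/6J animals on plain water, and WT + NACET mice (6 libraries) were the same strain given NACET, the ethyl ester of N-acetylcysteine. Akita mice (4 libraries, plain water) and Akita + NACET mice (5 libraries) were C57BL/6-Ins2Akita/J animals, in which 1 mutated copy of the insulin gene Ins2 in the pancreas causes diabetes. Treatment began at 4 weeks of age, with 0.33 mg of NACET in each mL of water, which gave a daily dose of 50 mg per kg of body weight. The labels number the libraries within a group but do not tie them to animals, so the spread between them may in part be technical.

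Each library held between 11495596 and 17814479 reads counted in genes. Levels are given as CPM, counts per 1000000 reads after scaling for library composition. The rod genes Gnat1, Pde6b and Nrl, which mark the main cell type of the retina, summed to between 15300 and 35700 CPM, and markers of cones, bipolar, amacrine, ganglion and Mueller cells were present in all libraries. Traces of neighbouring tissue varied: pigment epithelium markers summed to between 54.1 and 1280 CPM, and lens markers to between 0.304 and 10000 CPM. Reads outside annotated exons made up 14.9% to 17.1% of uniquely aligned reads in WT, 9.55% to 16.5% in WT + NACET, 9.67% to 13.3% in Akita and 14.3% to 19.8% in Akita + NACET. They did not overlap between WT and Akita or between Akita and Akita + NACET.

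How well the genes could be counted depended on their copies in the genome, since reads that aligned to several places had been left out of the counts. Of all stretches of 50 bases in the Akr1b3 transcript, 85% were also found, letter for letter, elsewhere in mm9. The share was 52.8% for Glo1 and 36.3% for Sord, 3.21% for Akr1b8 and 2.44% for Akr1b7, and 0% for Khk, Fn3k and Ager. The counts of Akr1b3, Glo1 and Sord therefore rest on the part of the transcript that is unique, and their levels read too low against those of the other genes.

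**Figure D1:**
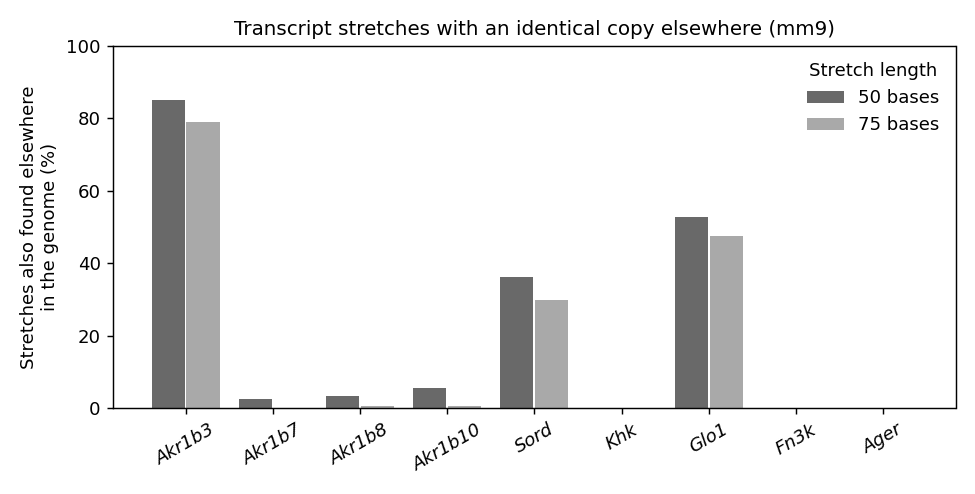
Share of all stretches of 50 bases (dark bars) or 75 bases (light bars) of each gene's longest transcript that occur again, identically, elsewhere in the mm9 genome, in percent. Akr1b3 stands highest at 85% and 79.1%, followed by Glo1 at 52.8% and 47.4% and Sord at 36.3% and 29.7%, while Khk, Fn3k and Ager have none.

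The copy that matters most for the results is Gm13443, an annotated pseudogene of Glo1 on another chromosome (mm9, chr2:35195858-35197110, plus strand), which matches 1253 transcript bases at 99.6% identity. Of these bases 5 differ, and 3 of the 5 lie in the 555 coding bases of Glo1. A read from most of this stretch is therefore told apart by few letters or by none.

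Compared per kilobase of exon, the genes spanned a wide range of levels. Glo1 was far above the others at 118 ± 23.2 CPM per kb (SD, n = 18 libraries), and its lowest library (85.7) lay above the highest library of any other member. Khk followed at 9.26 ± 1.06, Sord at 5.11 ± 1.10 and Fn3k at 4.08 ± 0.496 CPM per kb, and the ranges of Khk and Sord and of Sord and Fn3k overlapped. After a gap without overlap came Akr1b8 at 1.21 ± 0.618, Akr1b3 at 0.709 ± 0.150, Ager at 0.409 ± 0.213 and Akr1b7 at 0.0878 ± 0.0715 CPM per kb, each overlapping with the next. The length used was that of all annotated exons of a gene together. It is 3933 bases for Akr1b3 and 1499 for Akr1b8, while their longest transcripts have 1406 and 1358 bases. The order of Akr1b8 and Akr1b3 therefore depends on which length is used.

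**Figure D2:**
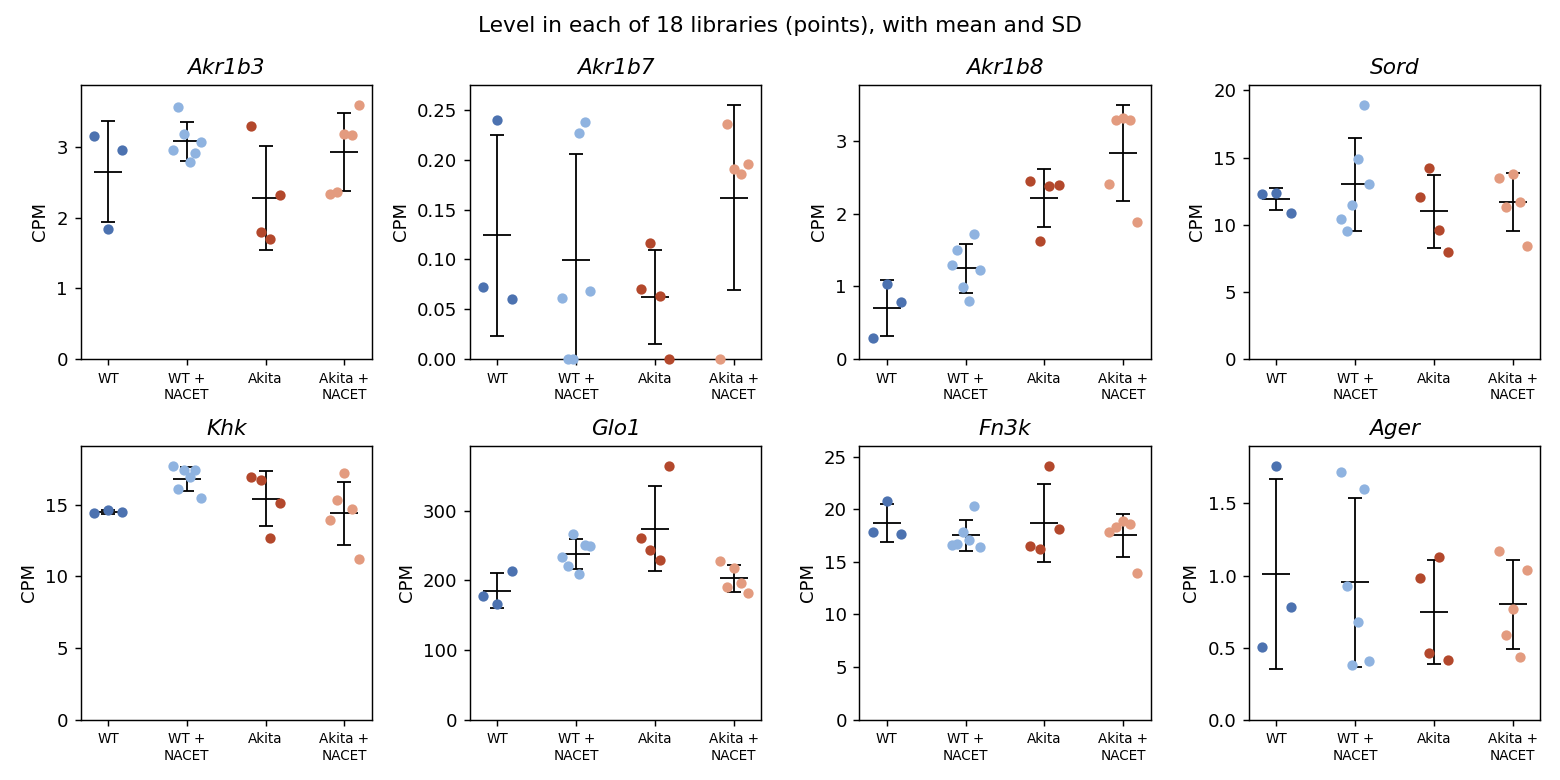
Level of each gene in CPM (vertical axes, each from 0) in the WT, WT + NACET, Akita and Akita + NACET libraries, with 1 point per library and the group mean ± SD in black. Akr1b8 runs from 0.287 to 1.04 in WT and from 1.62 to 2.45 in Akita, and Glo1 from 166 to 214 in WT and from 229 to 364 in Akita, while the other genes overlap between these groups.

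The first question was which of these genes differ in the diabetic retina, from Akita against WT. Of the 7 genes tested, 2 were DEGs at an adjusted p of at most 0.05, Akr1b8 and Glo1, and both were upregulated. Over all 16183 genes tested, 7.64% were DEGs in this comparison and 3.96% were upregulated DEGs. The 2 genes were also the members whose WT and Akita libraries did not overlap, which was the case for 23.2% of all genes tested. Akr1b3, Sord, Khk, Fn3k and Ager overlapped and did not pass the test.

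Akr1b3, the main aldose reductase gene of the mouse, lies on chromosome 6 (mm9, 34253934 to 34267497, minus strand). It was counted at 3.16, 1.84 and 2.95 CPM in WT and at 3.30, 1.80, 1.70 and 2.32 CPM in Akita. The lowest, median and highest of the 6 WT + NACET libraries were 2.78, 3.01 and 3.57 CPM, and the 5 Akita + NACET libraries had 2.34, 2.36, 3.19, 3.17 and 3.59 CPM. All groups overlapped. The log2 fold change of Akita against WT was −0.23 ± 0.25 (SE, adjusted p = 0.575), with a 95% interval, taken from the SE, of −0.72 to 0.25. Akita + NACET against Akita gave 0.37 ± 0.22 (adjusted p = 0.267).

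These values rest on 23 to 55 reads per library. In addition, 3 annotated copies match the Akr1b3 transcript over 1352 bases, and how many of its reads were left out for aligning to several places was not measured. Gm6644 on chromosome 1 is 99.7% identical, Gm6736 on chromosome 12 is 99.5% identical and Gm12138 on chromosome 11 is 99% identical. Gm6644 alone drew between 87.5% and 159% of the Akr1b3 count in a library. With the reads of the 3 copies added to those of Akr1b3, a choice made after seeing the data, the log2 fold change of Akita against WT was 0.00 (adjusted p = 0.992) and that of Akita + NACET against Akita 0.15 (adjusted p = 0.556).

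Akr1b8, an inducible relative of aldose reductase known as the fibroblast growth factor-regulated protein, lies next to Akr1b3 on chromosome 6 (mm9, 34304119 to 34318463, plus strand). It was counted at 0.287, 1.04 and 0.783 CPM in WT and at 2.45, 1.62, 2.39 and 2.40 CPM in Akita. The WT + NACET libraries had a lowest, median and highest level of 0.795, 1.26 and 1.72 CPM, and the Akita + NACET libraries had 2.41, 3.30, 3.32, 3.29 and 1.89 CPM. The 9 libraries from Akita mice, treated or not, ran from 1.62 to 3.32 CPM, and the 9 from WT mice from 0.287 to 1.72 CPM. These ranges overlapped, since a WT + NACET library at 1.72 CPM lay above the lowest Akita library. The counts behind these levels were low, 4 to 56 reads per library.

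In Akita, Akr1b8 was 3.13-fold the WT level, a log2 fold change of 1.65 ± 0.36 (SE, edgeR quasi-likelihood test, adjusted p = 0.0165), and higher than every WT library in 4 of 4 Akita libraries. The call was lost without WT replicate 1 (1.28, adjusted p = 0.109) or WT replicate 2 (2.0, adjusted p = 0.0581). It was also lost with only the 2 groups in the fit (1.64, adjusted p = 0.0658) and with a covariate for the percentage of reads outside exons (1.43, adjusted p = 0.273). Calls over all genes tested fell in the same analyses, from 7.64% to 0% without WT replicate 1, without WT replicate 2 and with the covariate, and to 0.965% with the 2 groups. In bulk tissue, more RNA per cell and more cells of an expressing type cannot be told apart. The cornea and conjunctiva markers Krt12 and Krt5 (2 of 2 detected in every library) also reached higher levels in Akita mice, with sums of 4.52 to 10.1 CPM in WT, 1.21 to 12.7 in WT + NACET, 7.5 to 36.7 in Akita and 6.96 to 84.3 in Akita + NACET, and their part in the result was not tested.

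No fall of Akr1b8 with NACET was detected. Akita + NACET against Akita gave a log2 fold change of 0.37 ± 0.27 (adjusted p = 0.383, 95% interval −0.16 to 0.89). Within the treated mice, Akita + NACET was 2.26-fold above WT + NACET (log2 1.18 ± 0.25, adjusted p = 0.00588), without overlap, where 13.3% of all genes tested were DEGs and 8.01% did not overlap. That call held in all 20 alternative analyses that kept the gene, with adjusted p from 0.000201 to 0.0336. The share of all genes called in them ran from 1.2% with the covariate for reads outside exons to 19.0% with DESeq2 on 2 groups. Akita + NACET was 4.04-fold above the untreated WT level (log2 2.01 ± 0.34), again without overlap, as for 4.17% of all genes tested, but the adjusted p of 0.0687 from edgeR missed the threshold. In that comparison 0 members were called and 1 of all genes tested was (0.00618%). Akr1b8 was the 1 member with an unadjusted p below 0.05, as were 4.63% of all genes tested. DESeq2 called it with all groups, where it called 0.0502% of the genes it tested, and with 2 groups, where it called 0.113%. WT + NACET against WT gave 0.83 ± 0.34 (adjusted p = 0.191), and the interaction of genotype with NACET −0.47 ± 0.43 (adjusted p = 0.458).

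Akr1b7, another gene of the same cluster (chromosome 6, 34362334 to 34373142, plus strand) that is known from vas deferens and adrenal gland, was all but absent. It had 0 to 4 reads per library and 32 reads in all 18, was at 0 in 4 libraries, and was too low to be tested. A count of 0 allows up to 3 reads, or between 0.207 and 0.249 CPM in the 4 libraries at 0, so a low level was not detectable at this depth. Of its exon bases 348 (27.2%) are shared with the antisense gene Gm13857, and without strand such reads cannot be assigned. Its neighbour Akr1b10, the remaining gene of the cluster, was counted at 3.69 ± 0.508 CPM in WT (SD, n = 3) and 3.44 ± 0.617 in Akita (SD, n = 4), which gave −0.0935 ± 0.25 on the log2 scale (adjusted p = 0.843). Of the genes in the cluster that were tested, Akr1b3, Akr1b8 and Akr1b10, Akr1b8 was the one that passed the test. The difference between its response and those of the others was not tested.

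Sord, which oxidizes sorbitol to fructose (chromosome 2, 122060485 to 122091076, plus strand), was counted at 12.3, 12.4 and 10.9 CPM in WT and at 12.1, 14.2, 9.61 and 7.96 CPM in Akita. The WT + NACET libraries had 9.50, 12.3 and 18.9 CPM as lowest, median and highest, and Akita + NACET had 13.5, 11.3, 13.8, 11.7 and 8.42 CPM. The groups overlapped in all comparisons. The log2 fold change was −0.11 ± 0.22 for Akita against WT (adjusted p = 0.788, 95% interval −0.54 to 0.33) and 0.0941 ± 0.19 for Akita + NACET against Akita (adjusted p = 0.785). A stretch without annotation at chr1:155466599-155467857 matches 1259 bases of its transcript at 99.4% identity, and its reads were not counted.

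Khk, which phosphorylates fructose (chromosome 5, 31223929 to 31233619, plus strand), was counted at 14.4, 14.6 and 14.5 CPM in WT and at 16.9, 16.7, 12.7 and 15.1 CPM in Akita. The WT + NACET libraries had 15.5, 17.1 and 17.7 CPM as lowest, median and highest, and Akita + NACET had 13.9, 15.3, 17.2, 14.7 and 11.2 CPM. All 6 WT + NACET libraries thus lay above the WT libraries, as was the case in either direction for 11.5% of all genes tested. The difference did not pass the test (log2 0.22 ± 0.12, adjusted p = 0.327). Akita against WT gave 0.0824 ± 0.13 (adjusted p = 0.723), with a 95% interval from −0.17 to 0.34.

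Glo1, the first enzyme of the glyoxalase system, lies on chromosome 17 (mm9, 30729811 to 30749604, minus strand). It was counted at 177, 166 and 214 CPM in WT and at 261, 243, 229 and 364 CPM in Akita. The 5 Akita + NACET libraries had 228, 190, 218, 196 and 182 CPM, and the lowest, median and highest WT + NACET libraries had 209, 241 and 267 CPM. Akita lay above WT and above Akita + NACET without overlap, with 1 library far above the rest, Akita replicate 4 at 364 CPM. Akita + NACET and WT overlapped.

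In Akita, Glo1 was 1.48-fold the WT level (log2 0.56 ± 0.14, SE, edgeR quasi-likelihood test, adjusted p = 0.0240). Akita + NACET was at 0.739 of the Akita level (log2 −0.44 ± 0.12, adjusted p = 0.0316), and Glo1 was the 1 member of 7 called there, where 9.65% of all genes tested were DEGs, 5.14% were downregulated DEGs and 14.1% did not overlap. Both comparisons use the same 4 Akita libraries, so they are not independent of each other. Akita + NACET against WT gave 0.13 ± 0.13 (adjusted p = 1.0, 95% interval −0.13 to 0.39).

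The NACET difference had opposite signs in the 2 genotypes. WT + NACET was 1.28-fold the WT level (log2 0.36 ± 0.13), which did not pass the test (adjusted p = 0.139). With edgeR, 0 members were called in WT + NACET against WT, where 1.48% of all genes tested were. At an unadjusted p below 0.05 there were 2, Akr1b8 and Glo1, beside 19.5% of all genes tested. DESeq2 called 0 members with all groups and 1, Glo1, with 2 groups, beside 4.9% and 6.66% of the genes it tested. The interaction, the NACET effect in Akita minus that in WT, was −0.80 ± 0.18 on the log2 scale (adjusted p = 0.00632). Glo1 was the 1 member of 7 with a called interaction, where 20.3% of all genes tested had one, so a called interaction was common in this table.

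The Glo1 calls between groups were lost without single libraries, and calls over all genes fell as well. For Akita against WT the call was lost without Akita replicate 4 (log2 0.40, adjusted p = 0.0686), WT replicate 1 (0.53, adjusted p = 0.123) or WT replicate 2 (0.49, adjusted p = 0.112). Without these libraries 1.44%, 0% and 0% of all genes tested were called, in place of 7.64%. For Akita + NACET against Akita it was lost without Akita replicate 4 (−0.27, adjusted p = 0.119) or without Akita + NACET replicate 2 (−0.41, adjusted p = 0.0735), 4 (−0.42, adjusted p = 0.0574) or 5 (−0.40, adjusted p = 0.0841). Over all genes tested the share called went from 9.65% to 0.00617%, 2.64%, 5.41% and 0.626% in these 4 analyses. With edgeR on only the 2 groups both calls were lost too (0.56, adjusted p = 0.104, and −0.41, adjusted p = 0.0717), while 0.965% and 4.56% of all genes tested were called. DESeq2 called Glo1 in both comparisons with all groups, where it called 13.7% and 15.8% of the genes it tested. It also called Glo1 in both with 2 groups, where it called 8.08% and 11.2%. The interaction was called without any single library of the 18, with 10.3% to 21.9% of all genes called.

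Other measures moved with Glo1. The share of reads outside exons was low in the libraries where Glo1 was high, and with that share as a covariate the log2 fold change of Akita against WT was 0.33 (adjusted p = 0.385), that of Akita + NACET against Akita −0.20 (adjusted p = 0.706) and the interaction −0.38 (adjusted p = 0.633). With the covariate, 0% of all genes tested were called in both comparisons and 0.105% in the interaction. The rod markers Gnat1, Pde6b and Nrl moved with it as well, with sums of 16300 to 23600 CPM in WT, 20200 to 28100 in WT + NACET, 23600 to 35700 in Akita and 15300 to 20800 in Akita + NACET. All 3 were present in every library. The amacrine markers Gad1 and Slc6a9, both present in every library, went the opposite way and summed to 265 to 362 CPM in WT, 214 to 313 in WT + NACET, 163 to 236 in Akita and 246 to 302 in Akita + NACET, so that Akita lay below WT and Akita + NACET without overlap. The bipolar markers summed to 243 to 405 CPM in WT, 139 to 252 in Akita and 186 to 393 in Akita + NACET, with overlap. The part of these markers in the result was not tested.

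**Figure D3:**
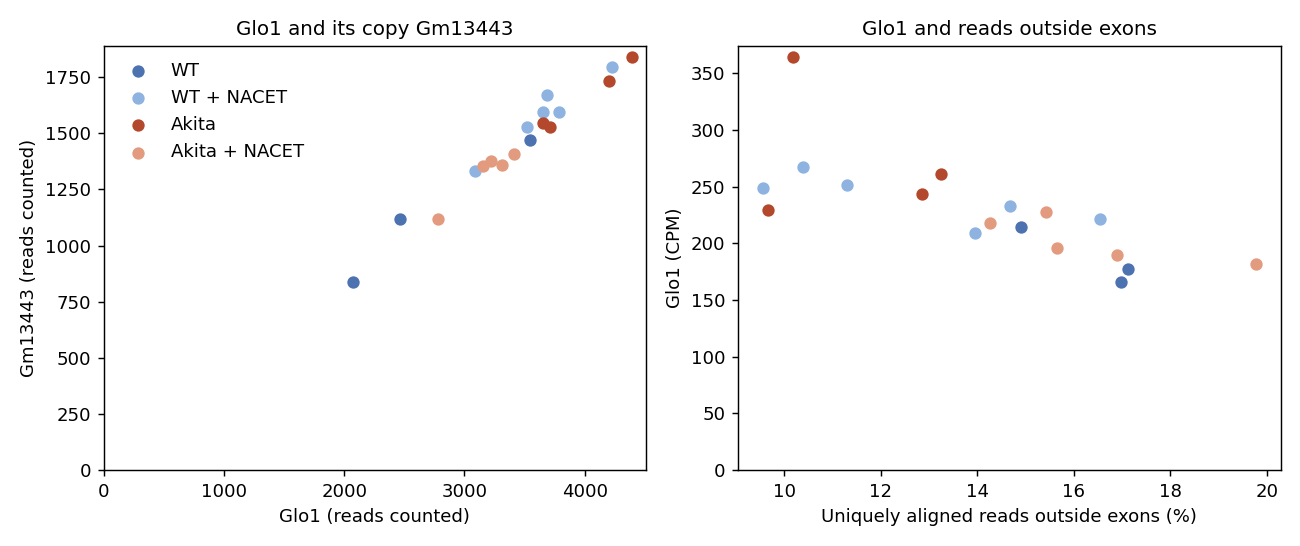
Left, reads counted in Glo1 (horizontal axis) and in its pseudogene copy Gm13443 (vertical axis), 1 point per library, colored by group. Right, the share of uniquely aligned reads outside exons in percent (horizontal axis, not starting at 0) and the Glo1 level in CPM (vertical axis). The copy has between 40.1% and 45.4% of the Glo1 count in every library, and the 4 Akita libraries lie left of the WT and Akita + NACET libraries.

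The pseudogene Gm13443 followed Glo1 closely. It drew between 40.1% and 45.4% of the Glo1 count in each library, median 42.2%, and its own log2 fold changes were 0.54 ± 0.14 for Akita against WT (adjusted p = 0.0262), −0.44 ± 0.12 for Akita + NACET against Akita (adjusted p = 0.0297) and −0.83 ± 0.17 for the interaction (adjusted p = 0.00463). With its reads added to Glo1, these 3 values for Glo1 were 0.56, −0.44 and −0.81, all called. Few letters differ between the 2 loci, and from which of them the reads counted in Gm13443 came was not tested. Its values are therefore not a result separate from Glo1.

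Fn3k, which phosphorylates fructosamines on proteins so that they fall off (chromosome 11, 121296227 to 121311805, plus strand), had group means between 17.5 and 18.7 CPM. It was counted at 17.8, 20.8 and 17.6 CPM in WT and at 16.5, 16.2, 24.1 and 18.1 CPM in Akita. The WT + NACET libraries had 16.4, 16.9 and 20.3 CPM as lowest, median and highest, and Akita + NACET had 17.8, 18.3, 18.9, 18.6 and 13.9 CPM. The mean was 18.7 ± 1.79 CPM in WT and 18.7 ± 3.70 in Akita. The log2 fold change between them had a 95% interval from −0.27 to 0.27 (adjusted p = 0.999), and Akita + NACET against Akita gave −0.0963 ± 0.12 (adjusted p = 0.634).

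Ager, which encodes RAGE (chromosome 17, 34734807 to 34737879, plus strand), was at the limit of detection with 5 to 28 reads per library. It was counted at 0.503, 1.76 and 0.783 CPM in WT and at 0.982, 0.463, 1.13 and 0.414 CPM in Akita. The WT + NACET libraries ran from 0.379 to 1.72 CPM with a median of 0.805, and Akita + NACET had 1.17, 0.589, 0.766, 0.435 and 1.04 CPM. No order of the groups could be seen. The log2 fold change of Akita against WT was −0.40 ± 0.55 (adjusted p = 0.669), with a 95% interval from −1.47 to 0.67, so a change of 1.5-fold in either direction lay within the interval.

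**Figure D4:**
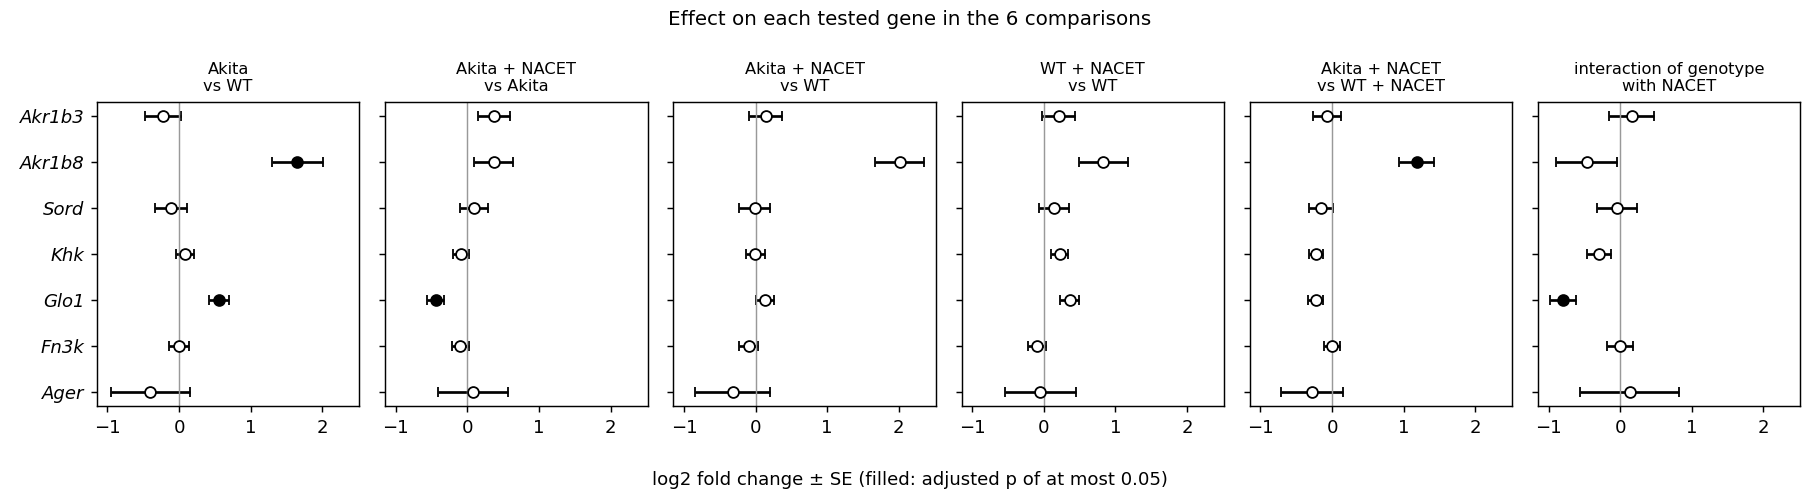
Log2 fold change (horizontal axes) with its SE for the 7 tested genes in each of the 6 comparisons, filled where the adjusted p was at most 0.05. Akr1b8 is filled in Akita against WT (1.65) and in Akita + NACET against WT + NACET (1.18), and Glo1 in Akita against WT (0.56), in Akita + NACET against Akita (−0.44) and in the interaction (−0.80).

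Promoters were compared for the members that were upregulated in Akita. RefSeq windows of 300 bases around the start site (GRCm38.p6) were found for 6 of the 8 members, all but Akr1b3 and Fn3k. The core of the antioxidant response element, TGACNNNGC on either strand, which NRF2 binds, was found for 0 of these 6 genes and in 12.4% of the 32851 windows of all genes. Members were counted by gene, with a match in any window of the gene, and all genes by window. Sites outside the windows were not searched. The GC box GGGCGG on either strand was found for 4 of the 6 genes (Akr1b8, Sord, Glo1 and Khk) and in 35.7% of all windows. The 250 bases before the start site of Akr1b8 (chr6:34353896-34354145, plus strand) and of Glo1 (chr17:30612660-30612909, minus strand) are shown because these genes were the 2 members called in Akita, with GC boxes in capitals, some of which share letters with the next.
Akr1b8: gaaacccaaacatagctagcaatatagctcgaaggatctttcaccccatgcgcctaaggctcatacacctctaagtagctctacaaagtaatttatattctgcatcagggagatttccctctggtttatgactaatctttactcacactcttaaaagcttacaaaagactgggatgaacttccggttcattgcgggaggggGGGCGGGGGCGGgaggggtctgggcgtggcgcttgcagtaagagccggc
Glo1: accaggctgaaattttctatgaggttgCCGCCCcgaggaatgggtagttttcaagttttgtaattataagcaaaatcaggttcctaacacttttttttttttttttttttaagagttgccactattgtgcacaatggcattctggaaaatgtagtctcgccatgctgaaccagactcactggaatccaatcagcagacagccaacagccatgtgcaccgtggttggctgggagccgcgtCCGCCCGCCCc

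The genes whose levels ran most like the called members were found by the Pearson correlation of log2 CPM over the 18 libraries, which share their depth and composition. For Akr1b8 they were Kdelr3 (r = 0.783), which encodes a receptor that returns proteins to the endoplasmic reticulum, Gm1862 (r = 0.770) and the kinase gene Mapk15 (r = 0.765). For Glo1 they were its copy Gm13443 (r = 0.982), the RNA helicase gene Ddx1 (r = 0.971) and Lin7c (r = 0.960), which encodes a scaffold protein of cell junctions. The 3 that ran with Glo1 all ran closer to it than any gene did to Akr1b8, whose counts were far lower.

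Around these members, 45 genes of 5 lists, also chosen with earlier results of these data known, were followed, of which 32 could be tested. In Akita against WT 4 were called, 3 upregulated and 1 downregulated, beside 7.64% of all genes tested, and the median of the 32 log2 fold changes was 0.19 against −0.01 over all genes tested. In Akita + NACET against Akita 5 were called, all downregulated (9.65% of all genes called in either direction), with a median of −0.12. In Akita + NACET against WT edgeR called 0, as did DESeq2, while 2 passed an unadjusted p of 0.05. In the other comparisons 1 of 32 was called in WT + NACET against WT (1.48% of all genes tested), 7 in Akita + NACET against WT + NACET (13.3%) and 10 in the interaction (20.3%).

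Many of these calls were lost in other analyses. With the covariate for reads outside exons, 0 of the 4 calls in Akita against WT and 0 of the 5 in Akita + NACET against Akita were left, and Fn3krp alone in each of the other comparisons with calls. With edgeR on only the 2 groups, 0 were called in Akita against WT and 1 (Slc6a6) in Akita + NACET against Akita, while the 7 in Akita + NACET against WT + NACET were all called. For Akita against WT, Akita + NACET against Akita and the interaction, the shares of all genes called in these analyses are those given for Glo1. With the covariate, 0.377% were called in WT + NACET against WT and 1.2% in Akita + NACET against WT + NACET. With edgeR on only the 2 groups, 14.8% were called in Akita + NACET against WT + NACET. In Akita against WT 0 of the 4 were called without WT replicate 1 or WT replicate 2, and 1 (Slc6a6) without Akita replicate 4. Without Akita replicate 3 it was 2 (Slc6a6 and Slc5a3), with 6.52% of all genes called. Without Akita replicate 1 or 2 Slc5a3 was lost (5.37% and 7.82% of all genes called), and without WT replicate 3 Adam10 was (9.2%). In Akita + NACET against Akita 0 were called without Akita replicate 4, and 1 (Slc6a6) without Akita + NACET replicate 2 or 5. Without Akita replicate 3 it was 2 (Slc6a6 and Prkcsh), with 6.15% of all genes called. Adam10, Akr7a5 or Prkcsh was lost without each of the others, where 5.0% to 10.9% of all genes were called. In Akita + NACET against WT + NACET the count ran from 2 without Akita + NACET replicate 5, which left Fn3krp and Park7, to 9, and in the interaction from 5 without WT replicate 1 or 2 to 11. With a library left out, 5.33% to 15.0% of all genes were called in the former and 10.3% to 21.9% in the interaction. The interactions of Fn3krp, Slc6a6, Hmgb1 and Park7, and both Fn3krp calls between groups, were called without any single library.

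The polyol and fructose list had 5 of 6 genes tested, and edgeR called 0 in each comparison of groups, with 0 to 2 at an unadjusted p below 0.05, and DESeq2 also called 0 there. Its 1 call was in the interaction, Dak, which phosphorylates glyceraldehyde from fructose (log2 −0.41 ± 0.14, adjusted p = 0.0398), and 14.3% of its exon bases overlap another gene. Among other aldo-keto reductases, 5 of 13 were tested. Akr7a5, which reduces toxic aldehydes, fell in Akita + NACET from 26.4 ± 3.01 CPM in Akita (SD, n = 4) to 20.9 ± 3.06 (SD, n = 5; adjusted p = 0.0468), and was also lower there than in WT + NACET (adjusted p = 0.0314). Akr7a5 and the aldehyde reductase gene Akr1a4 had called interactions of −0.52 ± 0.15 and −0.50 ± 0.17.

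In the list of dicarbonyl and fructosamine repair, 6 of 7 genes were tested. Hagh, the second glyoxalase, was counted at 132, 131, 142 and 149 CPM in Akita and at 112, 101, 130, 104 and 80.7 CPM in Akita + NACET, without overlap. It fell by 0.39 ± 0.10 on the log2 scale (adjusted p = 0.0280), in the same comparison in which Glo1 was downregulated. Park7, a redox-responsive protein with a reported glyoxalase activity, was lower in Akita + NACET than in WT + NACET (278 ± 27.7 against 365 ± 34.9 CPM, adjusted p = 0.00498). Hagh, Park7 and Ldhd, the D-lactate dehydrogenase that handles the end product of the glyoxalase system, had called interactions of −0.54 ± 0.15, −0.49 ± 0.13 and 1.06 ± 0.36. Ldhd shares 2246 exon bases with Znrf1 on the opposite strand, so its value is uncertain.

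Fn3krp, the neighbour and relative of Fn3k that acts on other sugar adducts of proteins, had the largest difference of the lists. It was counted at 6.32, 6.48 and 6.62 CPM in WT, at 7.78, 7.53, 6.59 and 5.55 CPM in Akita and at 6.27, 6.66, 6.57, 5.53 and 8.23 CPM in Akita + NACET. The 6 WT + NACET libraries had 36.3, 29.2, 63.4, 57.0, 70.7 and 64.0 CPM. Every one of them lay more than 3-fold above the highest library of the other groups. WT + NACET was 8.24-fold the WT level (log2 3.04 ± 0.25, adjusted p = 6.55e-07), and Akita + NACET was lower than WT + NACET by about the same amount (log2 −3.00 ± 0.20, adjusted p = 1.83e-08). The interaction was −3.09 ± 0.33 (adjusted p = 3.54e-05). At the same dose, Akita + NACET against Akita gave −0.0504 ± 0.22 (adjusted p = 0.909). NACET cannot be told apart here from anything else that sets the WT + NACET libraries apart, and the cause was not tested. Fn3k itself, which starts a few kilobases downstream on the same strand, gave −0.0966 ± 0.13 in WT + NACET against WT (adjusted p = 0.714). The astrocyte marker Gfap was also highest in WT + NACET, at 129 to 269 CPM against 33.0 to 78.6 in WT, 33.2 to 117 in Akita and 25.9 to 87.7 in Akita + NACET, while the other astrocyte marker, Pax2, ran from 0.284 to 0.818 CPM in WT + NACET and overlapped with all groups. Their part in the result was not tested.

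**Figure D5:**
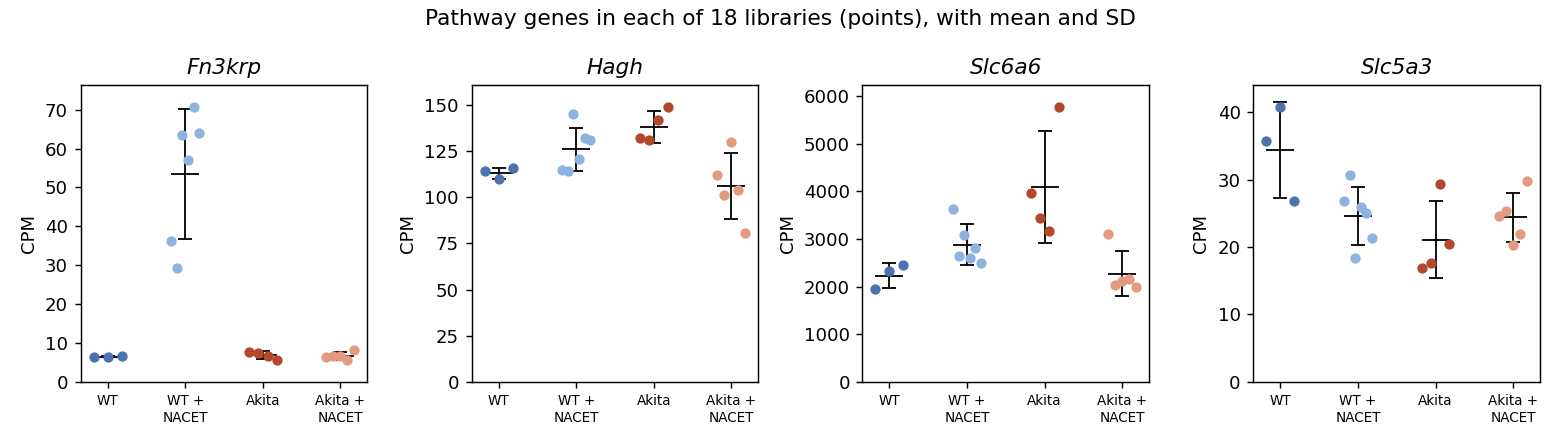
Levels in CPM (vertical axes, each from 0) of Fn3krp, Hagh, Slc6a6 and Slc5a3 in the 4 groups, with 1 point per library and the group mean ± SD in black. Fn3krp lies between 29.2 and 70.7 in WT + NACET and between 5.53 and 8.23 in all other libraries. Slc6a6 runs from 3170 to 5770 in Akita, which overlaps with WT + NACET at 2500 to 3630.

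Among receptors, partners and ligands of RAGE and of glycated proteins, 11 of 14 genes were tested. In Akita, Scarb1, a lipoprotein receptor that also takes up glycated proteins, rose from 157 ± 7.59 to 227 ± 55.8 CPM (log2 0.54 ± 0.14, adjusted p = 0.0293), and Adam10, a protease that sheds RAGE from the cell, rose from 70.6 ± 2.41 to 86.7 ± 9.77 CPM (log2 0.30 ± 0.09, adjusted p = 0.0422). Adam10 fell again by 0.24 ± 0.08 in Akita + NACET against Akita (adjusted p = 0.0466). Prkcsh, a glucosidase subunit, fell by 0.31 ± 0.10 in the same comparison (adjusted p = 0.05, at the threshold). It had no called rise in Akita against WT (log2 0.23 ± 0.11, adjusted p = 0.198). In Akita + NACET against WT + NACET, Diap1, a formin that binds the tail of RAGE, was higher (log2 0.39 ± 0.10), and Ddost, a subunit of the oligosaccharyltransferase, and the chromatin protein and RAGE ligand Hmgb1 were lower (−0.29 ± 0.09 and −0.28 ± 0.09). Hmgb1 and Ddost also had called interactions of −0.60 ± 0.14 and −0.47 ± 0.14.

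All 5 genes of the osmotic response, which cells use against the pull of sorbitol and glucose, could be tested. Slc6a6, the taurine transporter, was counted at 1940, 2320 and 2450 CPM in WT, at 3960, 3440, 3170 and 5770 CPM in Akita and at 3100, 2030, 2120, 2150 and 1980 CPM in Akita + NACET. Akita lay above both without overlap. The WT + NACET libraries ran from 2500 to 3630 CPM and overlapped with Akita. They all lay above WT, as was the case in either direction for 11.5% of all genes tested, but did not pass the test (log2 0.37 ± 0.18, adjusted p = 0.26). Slc6a6 was 1.83-fold higher in Akita than in WT (log2 0.87 ± 0.19, adjusted p = 0.0168), fell by 0.85 ± 0.17 in Akita + NACET against Akita (adjusted p = 0.0161), and had an interaction of −1.21 ± 0.24 (adjusted p = 0.00384). Slc5a3, the myo-inositol transporter, moved the other way: it was counted at 35.7, 40.8 and 26.8 CPM in WT and at 16.9, 17.6, 29.3 and 20.5 CPM in Akita, with 1 library of each group in the range of the other (log2 −0.70 ± 0.19, adjusted p = 0.0336). Slc5a3 shares 696 exon bases with Mrps6 on the same strand. Slc38a2, an amino acid transporter, was higher in Akita + NACET than in WT + NACET (log2 0.52 ± 0.16, adjusted p = 0.0418).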

How the data were processed

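Per the study's methods and the submitters' processing notes, the authors made poly(A) libraries (TruSeq), aligned reads to mm9 with TopHat2 2.1.0 and summed exon reads for each gene with HTSeq 0.11.2, leaving out reads that were ambiguous (1.07%) or aligned to several places (9.04%). The read length is not given in the sources used here. The deposited values are raw read counts, not normalized, 1 file per library, with 35006 gene names and 5 summary entries, besides a nameless entry (0.00544% of gene counts) that was left out. As in the study, ribosomal RNA genes were removed (206 genes, 0.977% of counts). Groups came from the sample labels. Counts were tested with edgeR 4.0.16 (R 4.3.3) by its quasi-likelihood F test (TMM, minimum count 10, minimum total 15, robust, 4 groups in 1 fit), over 16183 genes, with Benjamini-Hochberg adjustment and calls at an adjusted p of at most 0.05. The biological coefficient of variation was 0.186. The study's tool, DESeq2 (1.42.0 here), was an alternative. SEs come from the F statistic, and CPM from effective library sizes. The test was tried on simulated counts.

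The members and lists were chosen with earlier results of these data known. A marker gene of the lists is not reported here. Named were all members, the companion genes called (at most 4 per list and comparison, by adjusted p), and, for each called member, the 3 most correlated genes (prior count 2). Transcripts, positions and copies (BLAST 2.17.0, at least 99% identity over at least 1000 bases) are from mm9 and its GENCODE annotation, which held 33643 of the gene names, and promoters are from RefSeq. Alternatives were other size factors, DESeq2, fits of 2 groups, a filter at a mean count of 50 or none, ribosomal RNA genes kept, a replicate block, reads outside exons as a covariate, copies added, and each library left out. No replicate pair agreed within sampling noise (chi-square per degree of freedom 4.54 to 50.7).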

Additional observations from a re-analysis of the deposited data

Results flagged for a closer look

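In 24 sets of 1 gene and 1 group, a library was looked for that stood apart from the others of its group by Dixon's test at the 95% level, which chance alone passes in about 1 of 20 sets. Only groups of 4 or more libraries were looked at. For Akr1b8, Akita replicate 2 was lowest of 4 at 1.62 CPM, with the next at 2.39, and it still lay above all 3 WT libraries. For Fn3k, WT + NACET replicate 5 was highest of 6 at 20.3 CPM, with the next at 17.8, and Akita + NACET replicate 5 was lowest of 5 at 13.9 CPM, with the next at 17.8. For Akr1b7, Akita + NACET replicate 1 had 0.0 CPM against 0.186 or more in the other 4 libraries, a difference of 3 or 4 reads.

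The NACET effect on Glo1 differed between the genotypes, by −0.80 ± 0.18 on the log2 scale (adjusted p = 0.00632, edgeR interaction test). Over all genes tested, 20.3% had a called interaction. With reads outside exons as a covariate the Glo1 value was −0.38 (adjusted p = 0.633), and 0.105% of all genes were called. Akita + NACET was below Akita in 5 of 5 libraries, the nearest at 228 against 229 CPM, and 14.1% of all genes tested did not overlap there. In WT + NACET, 5 of the 6 libraries lay above the highest WT library, at 214 CPM, so these groups overlapped.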

How the results depend on the processing

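The 5 called comparisons of members had 98 alternative values, of which 80 kept the call and 0 changed direction. The alternatives reuse the same libraries, so they are not independent of each other. Akr1b8 kept its call in 12 of 16 for Akita against WT and in 20 of 20 for Akita + NACET against WT + NACET. Glo1 kept it in 11 of 17 for Akita against WT, 12 of 19 for Akita + NACET against Akita and 25 of 26 for the interaction. The 37 comparisons that were not called had 724 alternative values, of which 6 were called and 85 changed sign. For Akita against WT, 2 members were called. The count was 1 with a mean count of at least 50 (Glo1, since Akr1b8 was then not tested), 1 with the replicate block (Akr1b8), 0 with reads outside exons as a covariate, 0 with edgeR on only the 2 groups, and 0 to 2 with a library left out. The calls over all genes went from 1237 to 1280, 507, 0 and 148 in these 4 analyses and to between 0 and 1515 with a library left out. For Akita + NACET against Akita (1 called), it was 0 with the replicate block, 0 with the covariate, 0 with edgeR on the 2 groups and 0 to 1 with a library left out, with 219, 0, 700 and 1 to 1754 calls over all genes in place of 1562. For Akita + NACET against WT (0 called), it was 1, Akr1b8, with DESeq2 on all groups, with DESeq2 on 2 groups and without a filter, and 0 to 1 with a library left out (1 without Akita + NACET replicate 5). At most 0.113% of all genes tested were called in these analyses. For WT + NACET against WT (0 called), it was 1, Glo1, with DESeq2 on 2 groups (6.66% of all genes) and 0 with any library left out (0.437% to 2.04%). For Akita + NACET against WT + NACET (1 called), it was 0 with a mean count of at least 50, where Akr1b8 was not tested. It was 2 with DESeq2 on 2 groups (Akr1b8 and Glo1) and 1 with any library left out. Over all genes tested, 19.0% were called with DESeq2 on 2 groups and 5.33% to 15.0% with a library left out, in place of 13.3%. With a mean count of at least 50 the share was also above 13.3%. The interaction (1 called) was 0 with the covariate, where calls over all genes went from 3289 to 17. It was 1 with any library left out, where 10.3% to 21.9% of all genes were called. Apart from the filter, the causes were not tested.

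The replicate numbers did not pair the libraries: over 22 same-numbered pairs, deviations from the group means correlated from −0.332 to 0.345, with a median of −0.00138 against 0.00177 for other pairs. With the replicate block, Glo1 was at 0.54 in Akita against WT (adjusted p = 0.0589) and −0.43 in Akita + NACET against Akita (adjusted p = 0.0702). Of the companion genes, 1 (Slc6a6) was then called in each of these comparisons in place of 4 and 5, and 3 in Akita + NACET against WT + NACET in place of 7. Over all genes tested, 3.13%, 1.35% and 8.42% were called with the block. Without a filter, 3 (Diap1, Fn3krp and Park7) were called in Akita + NACET against WT + NACET, beside 5.87% of all genes. In Akita + NACET against Akita it was 2 without a filter (Hagh and Slc6a6), 8 with DESeq2 on all groups and 3 with DESeq2 on 2 groups. Over all genes tested, 3.68%, 15.8% and 11.2% were called in these analyses. Depth limits Akr1b7, Ager, Akr1b8 and Akr1b3, with at most 4, 28, 56 and 55 reads in a library.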
